A study of Homo sapiens with 4 samples.

Results

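COXFA4L3, long known as C15orf48, was measured with its paralogs COXFA4 (formerly NDUFA4) and COXFA4L2 (formerly NDUFA4L2) and with HMGN2P46, a transcribed pseudogene that lies near it on the same chromosome. These 4 genes, of 19775 with a value of their own on the arrays, were chosen by the measured values: COXFA4L3 and HMGN2P46 had a peak on the 12 h co-culture array, and the others were added for their kinship to COXFA4L3. Their differences between arrays are therefore a description, and no test was made of them. Each of the 4 genes was read by 1 probe set, a group of short probes against part of a transcript, and each reached the level of 6.19 log2 that served as a filter on at least 1 array. COXFA4L3 did so on 1 of 4 arrays, HMGN2P46 on 3, and COXFA4 and COXFA4L2 on 4.

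The cells were THP-1, an established human line from an acute monocytic leukaemia. A resting culture received no treatment. The Pam3CSK4 culture received the synthetic lipopeptide that activates the receptors TLR1 and TLR2, for a duration not given in the sources used here. The remaining cultures received Pam3CSK4 and were kept with platelet-like particles, whose source is not named in the labels, over 12 h or 24 h. Each condition was measured on 1 array, so the spread between cultures is unknown and precision is limited by this number. All 3 treated arrays carry Pam3CSK4, both co-culture arrays were compared with the same Pam3CSK4 array, and no array held particles without Pam3CSK4.

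Cytochrome c oxidase, complex IV of the respiratory chain, passes electrons from cytochrome c to oxygen in the inner mitochondrial membrane. COXFA4 is a small subunit of it that was earlier assigned to complex I. COXFA4L3 is a small mitochondrial protein that macrophages and epithelial cells make during inflammation, in part through NF-kB, and that can take the place of COXFA4 in complex IV. Its transcript is also the host of the microRNA miR-147b, for which the COXFA4 messenger RNA is a known target. COXFA4L2 is the member of the family that is induced in hypoxia through HIF transcription factors. HMGN2P46 derives from HMGN2, which encodes a nucleosome-binding protein.

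The sequences that bear on this locus are the microRNA that the COXFA4L3 transcript can yield and the promoters of the inducible gene and of its constitutive paralog. The mature microRNA lies at chr15:45433098-45433118 on the + strand of GRCh38.p14, and capitals mark its seed, bases 2 to 8. Of 2545 mature microRNAs in the RefSeq table, 1 carried this seed.
hsa-miR-147b-3p: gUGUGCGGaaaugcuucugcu
The array has no probe set named for MIR147B, so the microRNA itself has no value. The promoter windows run from 250 bases before the gene start to 50 bases after it, from RefSeq. That of COXFA4L3 is chr15:45430360-45430659 on the + strand and that of COXFA4 is chr7:10940104-10940403 on the - strand, both of GRCh38.p14, printed 5′ to 3′ with matches to TATANA or GGGCGG on either strand in capitals.
COXFA4L3 promoter: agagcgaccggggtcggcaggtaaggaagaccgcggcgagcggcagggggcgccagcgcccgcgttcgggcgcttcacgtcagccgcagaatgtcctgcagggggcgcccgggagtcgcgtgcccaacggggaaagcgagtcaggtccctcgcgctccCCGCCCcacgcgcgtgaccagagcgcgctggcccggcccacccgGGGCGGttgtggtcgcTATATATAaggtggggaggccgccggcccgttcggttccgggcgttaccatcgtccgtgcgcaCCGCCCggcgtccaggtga
COXFA4 promoter: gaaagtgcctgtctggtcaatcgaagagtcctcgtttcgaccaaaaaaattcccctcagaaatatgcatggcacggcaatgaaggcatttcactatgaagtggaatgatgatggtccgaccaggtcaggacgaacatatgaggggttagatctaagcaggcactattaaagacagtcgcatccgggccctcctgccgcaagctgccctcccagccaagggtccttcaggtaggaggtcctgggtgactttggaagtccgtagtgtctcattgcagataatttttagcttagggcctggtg
The COXFA4L3 window had a GC content of 73.3% and the COXFA4 window 50.7%, against a median of 58.7% over 35116 windows. A core promoter run, searched as TATANA on both strands, matched at -32 and -30 of the COXFA4L3 start, where the matches overlap, and was present in 19.0% of all windows. The GC box GGGCGG matched 3 times in the COXFA4L3 window, at -92, -48 and 31, and was present in 44.95% of windows. Neither motif matched in the COXFA4 window. The NF-kB consensus was found in 11.3% of windows and the AP-1 motif TGANTCA in 7.71%. Neither was found in the windows of COXFA4L3 or COXFA4, which says only that these letters are not in these 300 bases. The hypoxia response core was searched as ACGTG, found in 21.4% of windows, and as GCGTG, found in 36.5%. In the COXFA4L3 window ACGTG matched at -175 and GCGTG at -133, -86 and -81, and neither matched in the COXFA4 window. The 2 COXFA4L2 windows, chr12:57240713-57241012 and chr12:57240695-57240994, overlap. Both held the same 2 GCGTG matches and no ACGTG. A match describes letters and is no measured binding site.

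The arrays had near-equal distributions, with medians of 6.17 to 6.22 log2. Control probe sets at the 3′ end of GAPDH exceeded those at its 5′ end, as they do more in degraded RNA, by 2.16 log2 in resting cells and by 0.59 to 0.92 elsewhere. For ACTB the excess was 2.90 to 3.41. The part of these gaps in the differences from the resting array was not tested. The reference genes ACTB and GAPDH stood at -0.10 and -0.18 log2 at 12 h against Pam3CSK4. Of the markers of monocytic cells, 7 of 8 with a value of their own were past the filter. LYZ, at 12.98 to 13.81, and TYROBP, at 12.10 to 12.68, had the highest values. FCGR1A was under the filter on every array. MPO stood at 7.01 in resting cells and 5.52 with Pam3CSK4, and ITGAM differed by -0.66 at 12 h from Pam3CSK4. In such bulk RNA, a change in the share of cells that express a gene and a change in RNA per cell cannot be told apart.

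COXFA4L3 stood at 4.59 log2 in resting cells, 4.75 with Pam3CSK4, 7.75 after 12 h with the particles and 5.23 after 24 h. Only the 12 h array was past the filter, and the other 3 values lay in the lower 33.2% of their arrays, where signal over background was not established. The 12 h value was 2.995 log2 above the Pam3CSK4 value, and it is this contrast that chose the gene. Because the Pam3CSK4 value was under the filter, this size, and any rank among the 13410 genes past the filter, depends on background. Over the filter level itself, the 12 h value was higher by 1.56 log2, or 2.94-fold. At least 2-fold higher on the 12 h array than with Pam3CSK4 were 0.41% of genes, COXFA4L3 and HMGN2P46 among them, and 0.35% were at least 2-fold lower. On the plot of the 4 genes, COXFA4L3 forms a single peak, with the remaining arrays close to each other.

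With Pam3CSK4 alone COXFA4L3 stood 0.16 log2 from the resting value, and since both values were under the filter a difference there was not measurable. That comparison put 4.14% of genes 2-fold or more above resting cells and 1.71% below. After 24 h with the particles the gene stood 0.47 log2 from Pam3CSK4, again with both values under the filter. In that comparison 0.0298% of genes were higher by 2-fold or more and 0% lower. From 12 h to 24 h the difference was -2.52 log2. Between these arrays 0.224% of genes were lower by 2-fold or more and 0.343% higher. The size of this difference rests on a 24 h value under the filter, over which the 12 h value stood 1.56 log2 higher.

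**Figure D1:**
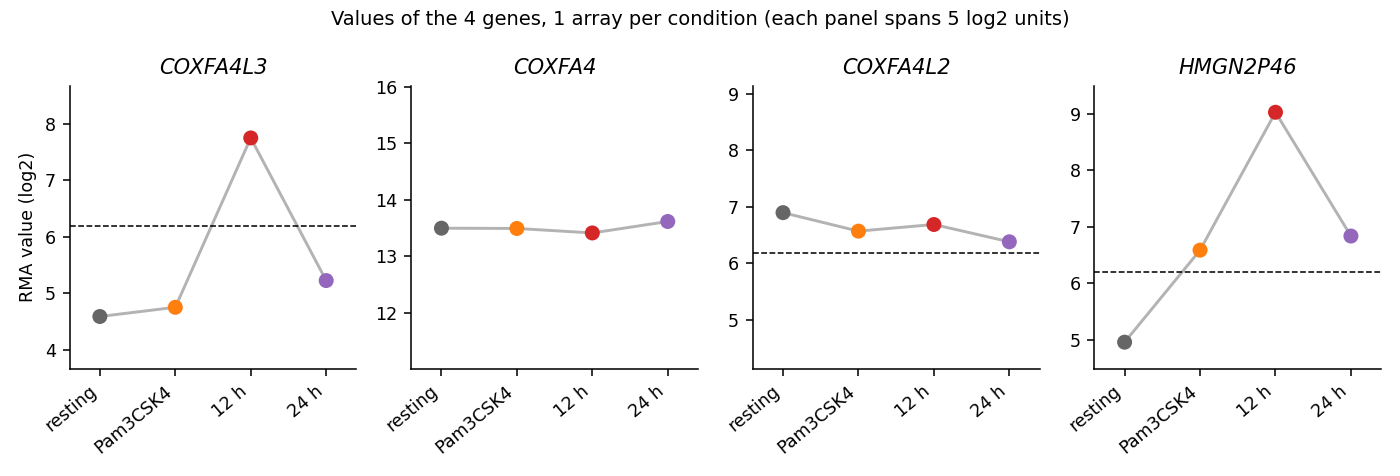
RMA values (log2, y axis) of the 4 genes on the 4 arrays (x axis), with 1 point per array and the filter level of 6.19 as a dashed line where it falls within a panel. COXFA4L3 and HMGN2P46 are highest on the 12 h array, at 7.75 and 9.02, while COXFA4 spans 0.20 and COXFA4L2 0.52 over the arrays.

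HMGN2P46 also had its highest value at 12 h, and its Pam3CSK4 value was already past the filter. HMGN2P46 stood at 4.96 log2 in resting cells, 6.58 with Pam3CSK4, 9.02 at 12 h and 6.83 at 24 h. Its resting value was under the filter and the others were past it. Pam3CSK4 exceeded resting by 1.63 log2, a size that depends on background, and by at least 1.31-fold against the filter level. The 12 h value exceeded Pam3CSK4 by 2.44 log2, or 5.42-fold, from a Pam3CSK4 value just past the filter. At 24 h the difference from Pam3CSK4 was 0.25 log2, 10.2% of that at 12 h. Its resting value being under the filter, HMGN2P46 was set against the filter level, over which it stood 2.83 log2 higher at 12 h and 0.64 higher at 24 h. Of all genes, 5.1% were at least 2-fold higher at 12 h than in resting cells and 4.49% at 24 h.

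The probe set of HMGN2P46 has the suffix _x_at, which marks probes that can bind related transcripts, so its values are uncertain as a readout of this gene alone. The HMGN family, whose proteins bind nucleosomes, was therefore read beside it. HMGN2, the parent gene, was itself read by an _x_at probe set. HMGN2 stood at 14.22 log2 in resting cells, 14.41 with Pam3CSK4, 14.49 at 12 h and 14.43 at 24 h. It was 0.08 higher at 12 h than with Pam3CSK4, against 2.44 for HMGN2P46. All 5 HMGN genes were past the filter. At 12 h 0 of the 5 differed at least 2-fold from Pam3CSK4, near the background of 0.41% higher and 0.35% lower. At 24 h the count was also 0, beside 0.0298% of all genes higher and 0% lower. The median of the HMGN genes was -0.10 at 12 h, with HMGN5 lowest at -0.25 and HMGN2 highest. At 24 h it was 0.04, with HMGN5 highest at 0.35. The 12 h median was 0.0019 under cyclic loess, of the opposite sign. With Pam3CSK4 against resting, the median was 0.04 and HMGN5 was lowest at -0.77.

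Genes on both sides of COXFA4L3 were read beside it. The 5 protein-coding genes on each side in the RefSeq order of GRCh38.p14 gave 8 genes with a value, of which 6 were past the filter, and 0 of 6 differed at least 2-fold between 12 h and Pam3CSK4. With 0.41% of all genes called higher and 0.35% lower, a count of 0 among 6 is near the background. Their median was -0.11, against -0.05 over all genes. AFG2B, an ATPase gene and the neighbour on the side of lower coordinates, stood at 9.71, 9.71, 9.67 and 9.71 log2 on the resting, Pam3CSK4, 12 h and 24 h arrays, a near-flat line. SLC30A4, a zinc transporter gene that lies between COXFA4L3 and HMGN2P46, was under the filter on every array with each of its 3 probe sets. These differed by -0.03 to 0.27 at 12 h, with values too low to measure a difference. BLOC1S6, a gene of organelle biogenesis and the protein-coding neighbour of HMGN2P46 on the far side, stood at 11.50, 11.23, 10.99 and 11.32 on these arrays. Its 3 probe sets were -0.39 to -0.23 from Pam3CSK4 at 12 h and 0.09 to 0.25 at 24 h.

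Farther genes of the stretch include those of the mitochondrial enzymes GATM and SQOR. GATM, which makes the creatine precursor guanidinoacetate, was the lowest of the 6 at 12 h. It stood at 10.59 in resting cells, 9.86 with Pam3CSK4, 9.35 at 12 h and 10.16 at 24 h. Its 12 h difference from Pam3CSK4 was -0.51, and its other probe set past the filter gave -0.31. SQOR, which oxidises sulfide, was the highest, at 11.01, 11.92, 12.13 and 11.87 on the 4 arrays, or 0.21 above Pam3CSK4 at 12 h. SEMA6D, a semaphorin gene, was the neighbour with a difference of at least 2-fold for Pam3CSK4 against resting, 2.06 log2 from a resting value of 5.72 under the filter. Its other probe set past the filter gave 0.21. SHF differed by -0.18 at 12 h and by -0.19 at 24 h, where it was lowest and GATM highest at 0.30. The median of the 6 was -0.02 at 24 h and -0.13 for Pam3CSK4 against resting, where GATM was lowest at -0.73.

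**Figure D2:**
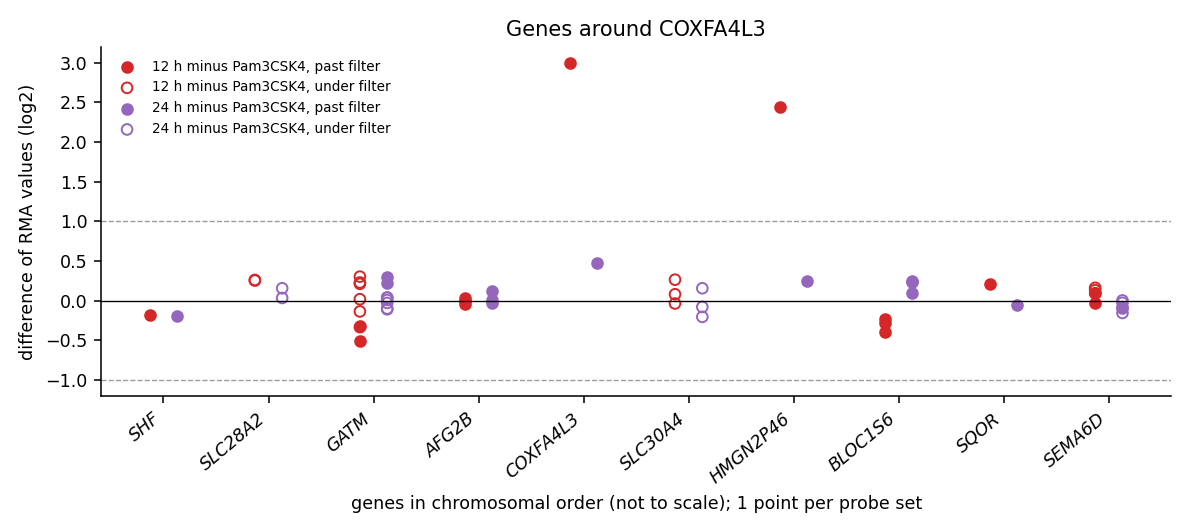
Difference from the Pam3CSK4 array (log2, y axis) of every probe set of the genes around COXFA4L3 in chromosomal order (x axis), at 12 h in red and 24 h in purple, filled where the probe set was past the filter, with dashed lines at 2-fold. COXFA4L3 at 2.995, from a Pam3CSK4 value under the filter, and HMGN2P46 at 2.44 stand above 1 at 12 h, and SLC30A4 between them spans -0.03 to 0.27.

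COXFA4, the paralog that COXFA4L3 can replace, was near-constant. It stood at 13.50 log2 in resting cells, 13.49 with Pam3CSK4, 13.41 at 12 h and 13.61 at 24 h, a span of 0.20 with the lowest value at 12 h. Against Pam3CSK4 it differed by -0.08 at 12 h, a sign that turned to 0.02 under cyclic loess, and by 0.12 at 24 h. The 12 h value lay 1.06-fold under that with Pam3CSK4. The probe set has the suffix _s_at, which marks probes shared by related transcripts, and RefSeq lists several COXFA4 pseudogenes.

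The other subunits of complex IV were read beside COXFA4, and none reached 2-fold. Some spanned less than COXFA4, such as COX4I1 at 13.92 to 14.03, and others more, such as COX5B at 13.02 to 13.51. Of 16 listed subunits 13 were past the filter, and 0 of 13 differed at least 2-fold in any of the 6 comparisons between arrays. At 12 h against Pam3CSK4 such a count is near the background of 0.41% higher and 0.35% lower. The shares of all genes were 4.14% and 1.71% for Pam3CSK4 against resting and 0.0298% and 0% for 24 h against Pam3CSK4. From 12 h to 24 h they were 0.343% higher and 0.224% lower. Against resting cells, of 13410 genes 684 were higher and 565 lower at 12 h, and 602 and 242 at 24 h. At 12 h their median was -0.08, against -0.05 over all genes, and turned to 0.0043 under cyclic loess. COXFA4 had 6 subunits above it and 7 below. COX5B, a nuclear-encoded subunit, was lowest at -0.26, COX7A2L and COX7C were both at -0.25, and COX4I2, an isoform with a value near the filter, was highest at 0.05. With Pam3CSK4 against resting the median was -0.04, from COX5B at -0.24 to COX4I2 at 0.18. At 24 h the median was 0.02, from COX6B2 at -0.28 to COX8A at 0.11, and COXFA4 at 0.12 was above all 13. From 12 h to 24 h it was 0.09, from COX4I2 at -0.30 to COX7C at 0.30.

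Genes for the assembly of complex IV and for other respiratory complexes lay mostly below 0 at 12 h without reaching 2-fold. Of all genes, 0.41% were at least 2-fold higher at 12 h than with Pam3CSK4 and 0.35% lower. Of 26 assembly genes 25 were past the filter, with a 12 h median of -0.14, and 21 of 25 were below 0, as were 58.7% of all genes. SCO1, a copper chaperone, stood at 7.99, 8.10, 7.39 and 7.85 on the 4 arrays and was lowest at -0.71. COX11, which also delivers copper, was at -0.56 and COX15, of haem A synthesis, at -0.38. COX18 at 0.08, COA5 at 0.03 and COA6 at 0.01 were highest. Of 37 complex I subunits 33 had a value past the filter, with a 12 h median of -0.15 and 31 of 33 below 0. NDUFA5 was lowest at -0.57, then NDUFB7 at -0.40 and NDUFA10 at -0.33, while NDUFB4 at 0.08 and NDUFV2 at 0.02 were highest. Of 29 genes of complexes II, III and V 25 were past the filter, with a median of -0.16 and 23 of 25 below 0. ATP5F1B and ATP5ME of the ATP synthase were lowest, both at -0.36, and CYC1 of complex III was highest at 0.03.

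These 12 h medians shrank to -0.03, -0.04 and -0.05 under cyclic loess. At 24 h the medians were 0.02 for assembly genes, 0.04 for complex I and 0.03 for complexes II, III and V. In the 3 groups 0 genes differed at least 2-fold from Pam3CSK4, beside 0.0298% of all genes higher and 0% lower. With Pam3CSK4 against resting the medians were -0.02, -0.13 and -0.06, again with 0 genes at 2-fold, beside 4.14% and 1.71% of all genes. HIGD1A, a hypoxia-linked factor of complex IV, was then highest among assembly genes at 0.50.

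**Figure D3:**
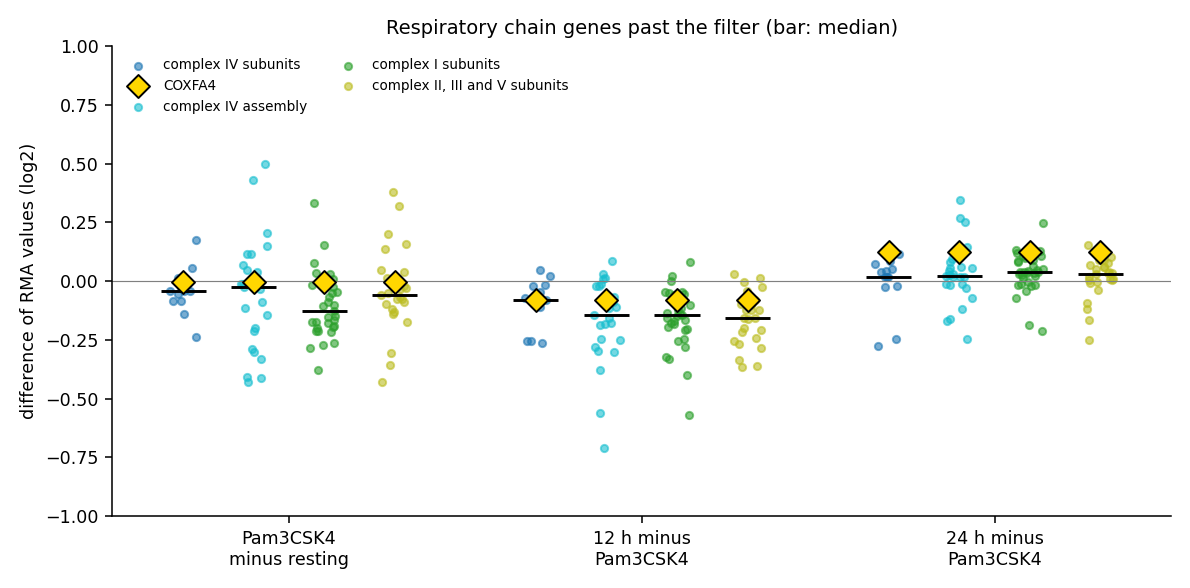
Difference between arrays (log2, y axis) of respiratory chain genes past the filter in 3 comparisons (x axis), with 1 point per gene, a black bar at each median and COXFA4 as a yellow diamond repeated over each group. All points lie within 1 log2 of 0, and at 12 h the group medians run from -0.16 to -0.08 with COXFA4 at -0.08.

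COXFA4L2, the hypoxia-inducible paralog, did not share the 12 h peak. It stood at 6.90 log2 in resting cells, 6.57 with Pam3CSK4, 6.69 at 12 h and 6.38 at 24 h, all just past the filter, with the highest value in resting cells. Its difference was -0.33 for Pam3CSK4 against resting, 0.12 for 12 h against Pam3CSK4 and -0.19 for 24 h against Pam3CSK4, each under 2-fold.

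Hypoxia target genes, of which 23 of 26 were past the filter, had a 12 h median of -0.04. At least 2-fold different from Pam3CSK4 were 0 of 23, near the background of 0.41% higher and 0.35% lower. COXFA4L2 had 5 of these 23 above it and 18 below at 12 h. The peptide hormone gene ADM stood at 0.52, from a Pam3CSK4 value of 5.68 under the filter, ANKRD37 at 0.46 and PFKFB3, a regulator of glycolysis, at 0.34. NDRG1 at -0.86, the MYC antagonist gene MXI1 at -0.69 and PDK1, which restrains pyruvate entry into mitochondria, at -0.52 were lowest. At 24 h the median was 0, again with 0 at 2-fold, beside 0.0298% of all genes higher and 0% lower. With Pam3CSK4 against resting, 2 of 23 were at least 2-fold higher, the angiogenic factor gene VEGFA at 1.60 and the mitophagy gene BNIP3L at 1.32, 0 were lower and the median was 0.13, beside 4.14% and 1.71% of all genes. Without _x_at and _s_at probe sets the median turned to -0.09.

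NF-kB target genes, the class to which COXFA4L3 is known to belong, were mostly higher with Pam3CSK4. Of 29 listed genes 26 were past the filter, and 21 of 26 were at least 2-fold higher with Pam3CSK4 than in resting cells, 0 lower, with a median of 2.54, beside 4.14% and 1.71% of all genes. The monocyte attractant CCL2 stood 5.78 above resting cells, CCL4 5.16 and the neutrophil attractant CXCL1 4.76, each from a resting value under the filter. IRF1 at 0.08, IL6 at 0.17 and CXCL3 at 0.74 were lowest. COXFA4L3 had no measurable difference to set beside these, as both of its values were under the filter.

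At 12 h, 9 of the 26 NF-kB targets were at least 2-fold above Pam3CSK4, 0 below, with a median of 0.73, beside 0.41% and 0.35% of all genes. All 26 were above 0, as were 41.1% of all genes. IL6 was past the filter on the 12 h array alone, at 6.33, and so had to be above 0 to be counted. The list was chosen with earlier results of these data known, so these counts are a description. CXCL8 differed by 1.79, CXCL2 by 1.78 and CXCL1 by 1.53. COXFA4L3, chosen on this contrast, stood 1.56 above the filter level, and its own Pam3CSK4 value was under it. IRF1 at 0.02, the NF-kB subunit RELB at 0.07 and SOD2 at 0.11 were lowest. At 24 h the median was 0.05, from RELB at -0.20 to the survival gene BCL2A1 at 0.66. At least 2-fold different were 0 of 26, beside 0.0298% of all genes higher and 0% lower. From 12 h to 24 h 4 of 26 were at least 2-fold lower and 0 higher, beside 0.224% and 0.343% of all genes. CXCL2 at -1.26, CXCL3 at -1.22 and CXCL8 at -1.20 were lowest. With the duration of Pam3CSK4 alone unknown, effects of time and of the particles cannot be told apart.

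**Figure D4:**
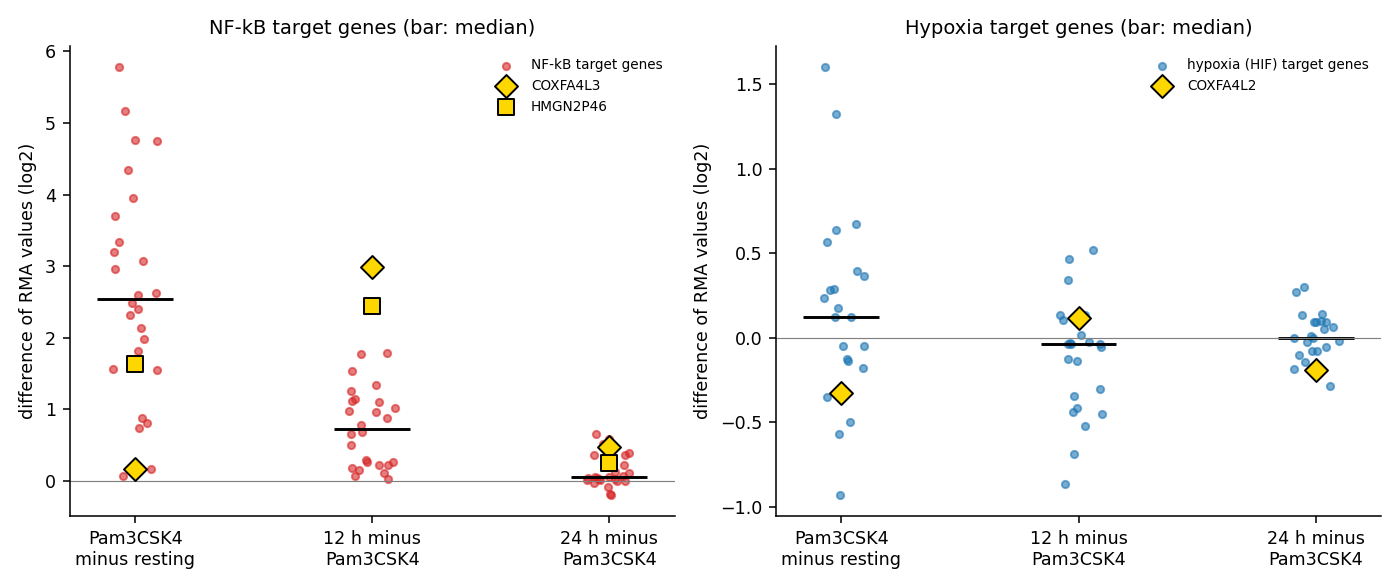
Difference between arrays (log2, y axes, which differ in scale) in 3 comparisons (x axes) for NF-kB target genes at left and hypoxia target genes at right, with 1 point per gene past the filter and a black bar at the median. COXFA4L3 (diamond) lies at 0.16 with Pam3CSK4 and at 2.995 at 12 h, both measured from values under the filter, so its place among the targets depends on background, while COXFA4L2 lies at 0.12 at 12 h.

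Other mitochondrial proteins of activated macrophages gave no common 12 h peak. Of 11 listed genes 10 were past the filter. At 12 h 1 of 10, BCL2A1 at 1.02, was at least 2-fold higher than with Pam3CSK4, beside 0.41% of all genes. BCL2A1 was under 2-fold with median-centred arrays. BCL2A1 and SOD2 are also on the NF-kB list, and GATM and SQOR are also neighbours of COXFA4L3. CMPK2, a mitochondrial nucleotide kinase, differed by 0.47 and UCP2, an inner membrane carrier, by 0.31. GATM at -0.51, the iron importer gene SLC25A37 at -0.44 and AK4 at -0.37 were lowest, and the median was 0.09. At 24 h the median was 0.08 with 0 at 2-fold, beside 0.0298% of all genes higher and 0% lower. With Pam3CSK4 against resting 4 of 10 were at least 2-fold higher and 1 lower, beside 4.14% and 1.71% of all genes, with a median of 0.41 that turned to -0.09 when all listed genes were counted. BCL2A1 differed by 4.34, from a resting value of 4.08 under the filter, the interferon-induced IFI6 by 3.10 and SOD2, the mitochondrial superoxide dismutase, by 2.32, while AK4, an adenylate kinase, stood at -1.61.

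On the 12 h array, 25 genes, or 0.186%, were at least 2-fold above each other array. The gap to the next array was 2.48 log2 for LAMP3, a lysosomal membrane gene of dendritic cells, and 2.19 for HMGN2P46, each with both arrays past the filter. For COXFA4L3 it was 2.52 from a 24 h value under the filter and 1.56 over the filter level. Of the 25, 5 were past the filter on the 12 h array alone, COXFA4L3, COL8A1, CALB1, HGD and LINC00597, and had to differ to be counted. The 25 were chosen on these same arrays, the resting array included, so the counts that follow are a description. Of the 25, 16, HMGN2P46 and LAMP3 among them, were at least 2-fold higher with Pam3CSK4 than in resting cells, beside 4.14% of all genes. The other 9 were under 2-fold there, COXFA4L3 among them, with NPTX1, COL8A1, STAT4, CXCL3, CALB1, HGD, AXL and FAM111B. For COXFA4L3, COL8A1, CALB1 and HGD both of those values were under the filter, so no difference between them was measured. Of the 25, 4 were in the NF-kB target list, CXCL1, CXCL2, CXCL3 and CXCL8. That list holds 26 of the 13410 genes past the filter.

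The 8 genes with the 4-array profile most like that of COXFA4L3 were ranked by the root-mean-square distance between profiles, each centred on its own mean. SERPINE2, a protease inhibitor gene, was nearest at 0.48 log2, then the collagen gene COL8A1 at 0.51, the pentraxin gene NPTX1 at 0.51 and the calcium-binding protein gene CALB1 at 0.52. HMGN2P46 was 5th of 13409 genes at 0.56, followed by the chemokine gene CXCL3 at 0.62, the transcription factor gene STAT4 at 0.64 and LINC00597 at 0.68. The median distance over all genes was 1.31. NPTX1 had values of 7.87, 8.01, 9.77 and 7.93 on the 4 arrays, all past the filter, and a Pearson correlation of 0.98 with COXFA4L3 over 4 arrays. CALB1 had 3.87, 3.68, 6.59 and 5.37, past the filter on the 12 h array alone. Profiles of such genes, COXFA4L3 included, are made in part of background values. Profiles over 4 arrays share the same RNA samples and are given as a description.

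**Figure D5:**
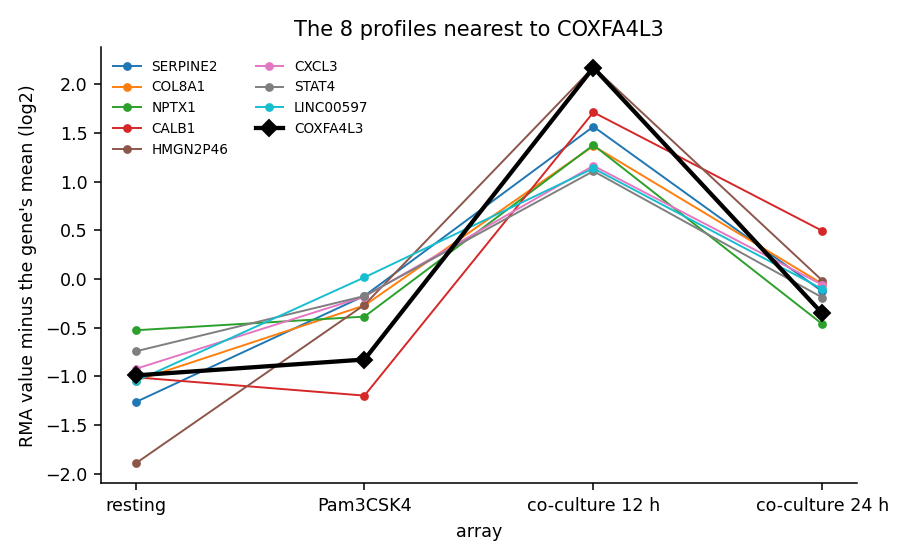
RMA value minus the gene's own mean (log2, y axis) on each array (x axis) for COXFA4L3 (black) and the 8 genes with the nearest profiles. All 9 genes are highest on the 12 h array, and HMGN2P46 is the lowest of them in resting cells.

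Markers of other cell types, those that could have given the particles among them, were read beside the peak. Of 12 megakaryocyte and platelet markers 10 had a value and 6 were past the filter. Beside 0.41% of all genes higher and 0.35% lower at 12 h against Pam3CSK4, 0 of these markers differed at least 2-fold. Their summed linear signal was 815 in resting cells, 676 with Pam3CSK4, 846 at 12 h and 731 at 24 h. Of the 6 past the filter, 5 were above 0 at 12 h, as were 41.1% of all genes, with TREML1 at 0.54, SELP at 0.51, GP1BA at 0.38, GP9 at 0.36 and ITGB3 at 0.34, and ITGA2B stood at -0.04. SELP was under the filter with Pam3CSK4, and ITGA2B, GP1BA, ITGB3 and TREML1 stood just past it there, at 6.28 to 6.58. Compared with resting cells, TREML1, GP9 and ITGA2B were lower at 12 h, and GP1BA, ITGB3 and SELP were higher. The chemokine genes PF4, at 5.72 to 5.97 log2, and PPBP, at 3.398 to 3.79, were under the filter on all arrays. Of 12 erythroid markers 9 entries had a value and 6 were past the filter. At 12 h 1 was at least 2-fold higher, beside 0.41% of all genes. This was the gamma globin pair HBG1 and HBG2, at 6.85, 6.57, 9.20 and 9.95 on the 4 arrays. HBE1 stood at 5.42, 5.45, 6.30 and 7.50, with its resting and Pam3CSK4 values under the filter. The remaining erythroid entries past the filter differed by 0.06 to 0.40 at 12 h. The erythroid sum was 915, 917, 1567 and 1971 on the resting, Pam3CSK4, 12 h and 24 h arrays.

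Of 5 epithelial markers, 2 were past the filter and 0 differed 2-fold at 12 h, with sums of 302, 295, 360 and 279 and KRT18 at 0.71. For this and the counts below, 0.41% of all genes were at least 2-fold higher at 12 h and 0.35% lower. EPCAM, the defining gene, stood at 3.77 to 4.07. T cell markers, 2 of 4 past the filter, had sums of 198 to 225 and B cell markers, 2 of 3 past it, of 258 to 288, each with 0 at 2-fold. Fibroblast markers, 4 of 5 past it, had sums of 498, 856, 1126 and 860, with 0 at 2-fold at 12 h and the matrix genes DCN at 0.52 and LUM at 0.59. Of 8 monocytic markers 0 were at least 2-fold higher at 12 h and 1 was lower, CD14, the lipopolysaccharide co-receptor, at -1.18. Their sums were 13311, 21414, 18260 and 22853. The part of these markers in the 12 h values of COXFA4L3 and HMGN2P46 was not tested.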

How the data were processed

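Total RNA of THP-1 cells, biotin-labelled, was read on Affymetrix arrays, 4 in all and 1 per condition. The deposited values are log2 values made with RMA in affy 1.28.1, per the submitters' processing notes. RMA forces arrays to a common distribution, so a global change in RNA cannot be seen. Array images and detection calls were not used here. The titles of the co-culture arrays end in 13 and 25 and their descriptions give 12 h and 24 h, which were used.

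Probe sets were named by a platform annotation, 41091 of 54675 with 1 gene. A gene was its probe set of highest mean, and entered where 1 or more arrays reached 6.19, the overall median. Differences of log2 values were counted from 2-fold. Groups of 1 array allow no test. Members and gene lists were chosen with earlier results of these data known. Text names all members, the 3 highest and lowest genes of a list or its extremes, ACTB, GAPDH and the 8 nearest profiles; other names were chosen after their values were seen. RefSeq sequences and gene order are of GRCh38.p14, and no table of proteins was used here. Counting was tested on simulated data. Alternatives were 2 other filters, averaged probe sets, omission of _x_at and _s_at probe sets, cyclic loess (limma 3.58.1, R 4.3.3, 3 iterations), median centring, and 1.5-fold and 3-fold thresholds. Python 3.11.15, numpy 2.4.6, pandas 2.3.3 and matplotlib 3.10.9 were used.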

Additional observations from a re-analysis of the deposited data

Results flagged for a closer look

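The paralogs COXFA4 and COXFA4L2 drew attention because their co-culture arrays lay on opposite sides of the Pam3CSK4 array. COXFA4 differed by -0.079 at 12 h and 0.123 at 24 h, and COXFA4L2 by 0.118 at 12 h and -0.189 at 24 h. Under cyclic loess the 12 h difference of COXFA4 was 0.021, on the same side as its 24 h difference. Each of these differences is under 2-fold and rests on 1 array per time, and the difference between the times was not tested.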

How the results depend on the processing

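No paired analysis was possible because each condition has 1 array. All 80 differences of the 4 genes that the alternatives gave stayed on the same side of 2-fold, and 2 turned their sign, both of COXFA4 and both near 0. Each of the 4 genes has 1 probe set, so other filters, averaging and omission of probe sets could not move a difference. Only cyclic loess and median centring could, so most of the 80 were fixed in advance. COXFA4L3 at 12 h against Pam3CSK4 ranged from 2.93 to 2.995 and HMGN2P46 from 2.40 to 2.44. COXFA4L3 and COXFA4L2 had no value with a filter at the 75th percentile, 8.01, nor COXFA4 and HMGN2P46 without _x_at and _s_at probe sets. Of 288 list medians under alternatives 14 turned their sign. The 1.5-fold and 3-fold settings change only the counts, so their medians, which are among the 288, could not turn. Without _x_at and _s_at probe sets 5 NF-kB targets, not 9, were 2-fold higher at 12 h. That setting removes the only probe sets of CCL2 and IER3 and those that represented CXCL2 and CXCL8. The lower count thus reflects probe sets left out. Over all genes, at 1.5-fold the counts of higher and lower genes were 1017 and 790 for Pam3CSK4 against resting, 255 and 383 for 12 h and 22 and 1 for 24 h against Pam3CSK4, and 421 and 185 for 24 h against 12 h. At 2-fold they were 555 and 229, 55 and 47, 4 and 0, and 46 and 30. At 3-fold they were 310 and 67, 12 and 6, 2 and 0, and 5 and 5. All of these are of 13410 genes. With averaged probe sets, of 11691 genes 26 were at least 2-fold lower at 12 h than with Pam3CSK4. Of these 11691, 1 was higher at 24 h than with Pam3CSK4, and 21 were higher at 24 h than at 12 h. With the 75th percentile filter 1 of 8545 genes was at least 2-fold higher at 24 h than with Pam3CSK4. Signal near background limits the size of each COXFA4L3 difference.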
